A study of Homo sapiens with 6 samples.

Results

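HAND2 and TCF4 binding was compared in the MYCN-amplified human neuroblastoma line SK-N-BE(2), using the 2 HAND2 peak lists and the 1 TCF4 peak list of a CUT&Tag series. Peaks on chromosomes 1 to 22 and X were used: 30410 for HAND2 replicate 1, 33484 for HAND2 replicate 2 and 30704 for TCF4. Together these are 94598 of the 118064 peaks in the 5 lists of the series, the others being of the homeodomain factor MEIS2. In CUT&Tag an antibody tethers a transposase to the bound protein, and the transposase cuts and tags the DNA beside it. All libraries came from this established line, with no treatment named in the labels, and differed in the antibody. The HAND2 peaks were called against a library made with a non-specific IgG, whose own peaks were not analysed here. The control of the TCF4 list is not named in the sources used here and was taken to be the same library, so TCF4 folds and background values rest on that reading. The labels do not say that the HAND2 replicates came from separate cultures, so their spread may be technical, and TCF4 with 1 library has no replicate check. No test was made, since TCF4 has 1 library and peaks are not replicates. The agreement between the HAND2 replicates, measured in the same way, stands beside each value, and intervals are exact 95% intervals that cover counting error only.

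Basic helix-loop-helix (bHLH) factors bind DNA as dimers at E-boxes, short sites of the form CANNTG. HAND2 belongs to the tissue-restricted class, which pairs with broadly expressed E proteins such as TCF3, TCF4 and TCF12, and it is required for the sympathetic lineage from which neuroblastoma arises. ID proteins lack the basic DNA-binding region and hold E proteins in dimers that cannot bind. TCF4 is also an older name of TCF7L2, an HMG-box factor of the Wnt pathway. The labels name the target only as TCF4, and which protein the antibody recognised was not tested.

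Promoters where all lists placed a summit, the base of highest pile-up, show what a shared site looks like. RefSeq promoter windows (GRCh38.p14, the same assembly as the hg38 of the files) run from 250 bases before a gene's start to 50 after it, and 15813 of 19974 protein-coding genes had one. In 222 of them the summits of both HAND2 replicates and of TCF4 lay inside. The 4 with the best lowest rank of fold over the 3 lists are printed, with a further promoter (VPS35) that was picked after its values were seen because all summits fell on the same base. Each sequence is the 250 bases before the start, 5′ to 3′ on the gene's strand, with every CANNTG in capitals.
TMX4 (chr20:8019762-8020011, minus strand): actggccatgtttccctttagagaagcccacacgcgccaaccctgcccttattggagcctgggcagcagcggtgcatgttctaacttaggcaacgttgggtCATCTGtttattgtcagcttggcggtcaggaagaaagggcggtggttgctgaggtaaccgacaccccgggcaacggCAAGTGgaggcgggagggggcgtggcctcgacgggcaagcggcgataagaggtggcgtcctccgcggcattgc
MYLK3 (chr16:46763247-46763496, minus strand): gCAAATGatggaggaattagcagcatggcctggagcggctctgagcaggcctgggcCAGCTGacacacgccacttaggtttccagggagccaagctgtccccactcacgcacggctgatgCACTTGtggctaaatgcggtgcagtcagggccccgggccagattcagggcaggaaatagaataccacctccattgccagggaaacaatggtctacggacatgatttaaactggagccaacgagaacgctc
GPBAR1 (chr2:218259246-218259495, plus strand): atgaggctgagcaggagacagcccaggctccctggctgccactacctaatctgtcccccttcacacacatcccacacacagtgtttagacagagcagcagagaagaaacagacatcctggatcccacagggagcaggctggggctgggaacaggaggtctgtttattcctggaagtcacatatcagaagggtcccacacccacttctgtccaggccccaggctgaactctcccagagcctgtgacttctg
MARCKS (chr6:113857095-113857344, plus strand): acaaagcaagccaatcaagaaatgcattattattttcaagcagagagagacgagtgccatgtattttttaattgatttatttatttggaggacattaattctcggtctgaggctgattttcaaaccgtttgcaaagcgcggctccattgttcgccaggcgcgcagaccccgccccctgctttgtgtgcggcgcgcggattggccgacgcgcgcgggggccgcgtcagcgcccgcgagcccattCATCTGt
VPS35 (chr16:46689179-46689428, minus strand): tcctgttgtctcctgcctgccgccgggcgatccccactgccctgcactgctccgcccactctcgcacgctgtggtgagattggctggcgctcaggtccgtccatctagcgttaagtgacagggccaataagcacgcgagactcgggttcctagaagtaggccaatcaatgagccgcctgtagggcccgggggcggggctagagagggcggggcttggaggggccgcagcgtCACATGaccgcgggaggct

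At the MYLK3 promoter, whose gene encodes the cardiac myosin light chain kinase, the summits of HAND2 replicates 1 and 2 and TCF4 stood at bases 101, 100 and 105 of the window. Its E-boxes began at bases 2, 57 and 121, the second being CAGCTG, which reads the same on both strands. The fold at the summit, the deposited ratio of pile-up to local background, was 19.6 and 32.4 for HAND2 and 9.35 for TCF4. At MARCKS, a protein kinase C substrate gene, the summits stood at bases 167, 172 and 173, and the only E-box in the printed stretch began at base 244. That E-box, CATCTG, is CAGATG read on the other strand. At VPS35, a retromer subunit gene, all summits fell on base 40, and the single E-box, CACATG, began at base 232. The printed bases of GPBAR1, a bile acid receptor gene, hold no CANNTG, and its summits stood at bases 237, 272 and 237. TMX4, a thioredoxin-related membrane protein gene, had its summits spread over bases 159, 198 and 291, with E-boxes at 102 and 178. In these 5 promoters, then, no fixed spacing of summit and E-box recurred.

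Over whole 300-base windows, without regard to GC content, promoters holding both factors carried each E-box at a share whose interval includes that of all promoters. CAGATG, on either strand, was in 13.96% of the 222 shared promoters (9.69 to 19.2%) and in 11.7% of all 15813. The palindrome CAGCTG was in 18.5% (13.6 to 24.2%) against 17.7%. CAGGTG, on either strand, was in 16.7% (12.0 to 22.2%) against 19.9%, and the palindrome CACGTG was in 7.66% (4.52 to 12.0%) against 8.87%. Any CANNTG, which includes all of these, was in 58.1% (51.3 to 64.7%) against 64.5%. Promoters with a TCF4 summit and no HAND2 summit of either replicate numbered 1635. CAGATG was in 8.20% of them (6.91 to 9.63%), and they were GC-rich, with a median of 70.3% against 62.7% over all promoters and 65.7% in the shared ones. Among promoters above the median GC content, CAGATG was in 11.8% of the 152 shared ones (7.17 to 18.1%) and 6.89% of all 7862. It was in 7.83% of the 1380 with TCF4 and no HAND2 (6.46 to 9.37%). The interval of the shared ones thus lies just above the share of all high-GC promoters. At or below the median, CAGATG was in 18.6% of the 70 shared promoters (10.3 to 29.7%) against 16.4% of all 7951. For the other specific E-boxes above, the shared intervals included the share of all promoters on both sides of the median. The high-GC case of CAGATG stood alone among these comparisons and shows no general E-box excess at equal GC content. These are matches of letters within promoters, and the sequence under distal peaks was not analysed here.

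HAND2 and TCF4 peaks overlapped at close to every second peak of either list. TCF4 overlapped 44.3% of HAND2 replicate 1 peaks by at least 1 bp (13457 peaks, interval 43.7 to 44.8%) and 49.7% of replicate 2 peaks (16640, 49.2 to 50.2%). For comparison, 78.5% of replicate 1 peaks overlapped replicate 2 (78.0 to 79.0%). In the other direction, 43.0% of TCF4 peaks (42.5 to 43.6%) overlapped HAND2 replicate 1 and 52.9% (52.3 to 53.4%) overlapped replicate 2. The difference between the HAND2 replicates is larger than the counting error in both directions. Of TCF4 peaks, 41.1% overlapped both HAND2 replicates, 13.7% overlapped 1 of them and 45.2% (13871 peaks) overlapped neither. Requiring summits no more than 200 bp apart lowered the mean share over the HAND2 replicates from 47.0 to 32.5%. The overlaps were mostly simple, since 12762 and 15735 pairs were each other's nearest partner. A TCF4 peak held 2 or more peaks of a HAND2 list at 664 places for replicate 1 and 857 for replicate 2.

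Sites that only 1 HAND2 replicate called differed between the replicates in how often TCF4 was there. Of HAND2 peaks found in both replicates, 53.6% of the replicate 1 peaks and 52.8% of the replicate 2 peaks overlapped TCF4. These peaks overlap each other and meet the same TCF4 list, so their near-equal shares are no check of the replicates. Of the 6536 peaks found in replicate 1 alone, 10.1% overlapped TCF4 (9.42 to 10.9%). Of the 9501 found in replicate 2 alone, 41.9% did (40.9 to 42.9%). These peaks also differed in kind: the median pile-up, the number of fragments over the summit, was 17 for those of replicate 1 and 27 for those of replicate 2. Their summits lay within 1 kb of a protein-coding gene end at 5.58 and 17.9%. The part of pile-up and position in this difference was not tested.

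Both lists met most often at gene ends when read from HAND2, and least often there when read from TCF4. HAND2 summits lay within 1 kb of an end (start or stop) of a protein-coding gene at 10.9% of replicate 1 and 13.9% of replicate 2 peaks, against 31.0% of TCF4 peaks. At gene ends TCF4 overlapped 85.8% of replicate 1 (84.6 to 87.0%) and 87.5% of replicate 2 peaks (86.5 to 88.4%). Away from gene ends the shares were 39.2% (38.6 to 39.8%) and 43.6% (43.0 to 44.2%). The difference was 46.6 and 43.8 percentage points, a mean of 45.2 ± 1.96 (SD, n = 2). Of TCF4 peaks at gene ends, 29.8% overlapped HAND2 replicate 1 and 42.1% replicate 2, against 49.0 and 57.7% away from them. The distal overlaps were the more numerous, with 10614 of the 13457 shared replicate 1 peaks and 12581 of the 16640 shared replicate 2 peaks away from gene ends. TCF4 peaks with neither HAND2 replicate lay at gene ends at 38.2%, and those with both at 20.9%.

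Background moved with these shares, and its part in the overlap was not tested. The local background of a peak, expressed as IgG fragments at its summit, had a median of 18 at gene-end and 6 at distal HAND2 replicate 1 peaks, and of 18.6 and 7 in replicate 2. Over all positions, TCF4 overlapped 8.56% of HAND2 replicate 1 peaks with fewer than 4 IgG fragments, 62.9% of those with 8 to 16 and 92.4% of those with 30 or more. In replicate 2 these classes had 771 of 7009 peaks, 61.9% and 93.7%. TCF4 peaks had a flatter course, with 59.8% of those with fewer than 4 IgG fragments, 39.8% of those with 8 to 16 and 45.8% of those with 30 or more overlapping HAND2 replicate 1. By position some of these shares were higher in higher background: distal TCF4 peaks went from 43.6% at 8 to 16 to 63.7% at 30 or more with replicate 1, and gene-end ones from 32.5% at under 4 to 50.6% at 30 or more with replicate 2. Within classes of the same background the gene-end excess was smaller and kept its sign in all 5 classes of both replicates, from 9.14 to 30.3 points, with a mean of 18.8. For TCF4 peaks with 8 to 16 IgG fragments the gene-end share with replicate 1 was 24.7% against 43.6% away from gene ends.

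Ranked by fold, the 100 highest TCF4 peaks nearly always had HAND2, while the 100 highest HAND2 peaks had TCF4 less often. That was still more often than HAND2 peaks as a whole. From the lowest to the highest quartile of TCF4 fold, 17.2, 31.4, 49.4 and 74.2% of peaks overlapped HAND2 replicate 1. For replicate 2 the shares were 25.7, 41.7, 61.5 and 82.6%. Among the 100 TCF4 peaks of highest fold, 94 overlapped replicate 1 and 97 overlapped replicate 2. Across the quartiles of HAND2 fold the shares with TCF4 were instead 62.2, 40.1, 33.4 and 41.3% in replicate 1 and 62.8, 45.6, 40.9 and 49.5% in replicate 2. Among the 100 HAND2 peaks of highest fold, 63 of replicate 1 and 72 of replicate 2 overlapped TCF4, against 44.3 and 49.7% of all peaks. All 100 of either replicate overlapped the other HAND2 library.

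**Figure D1:**
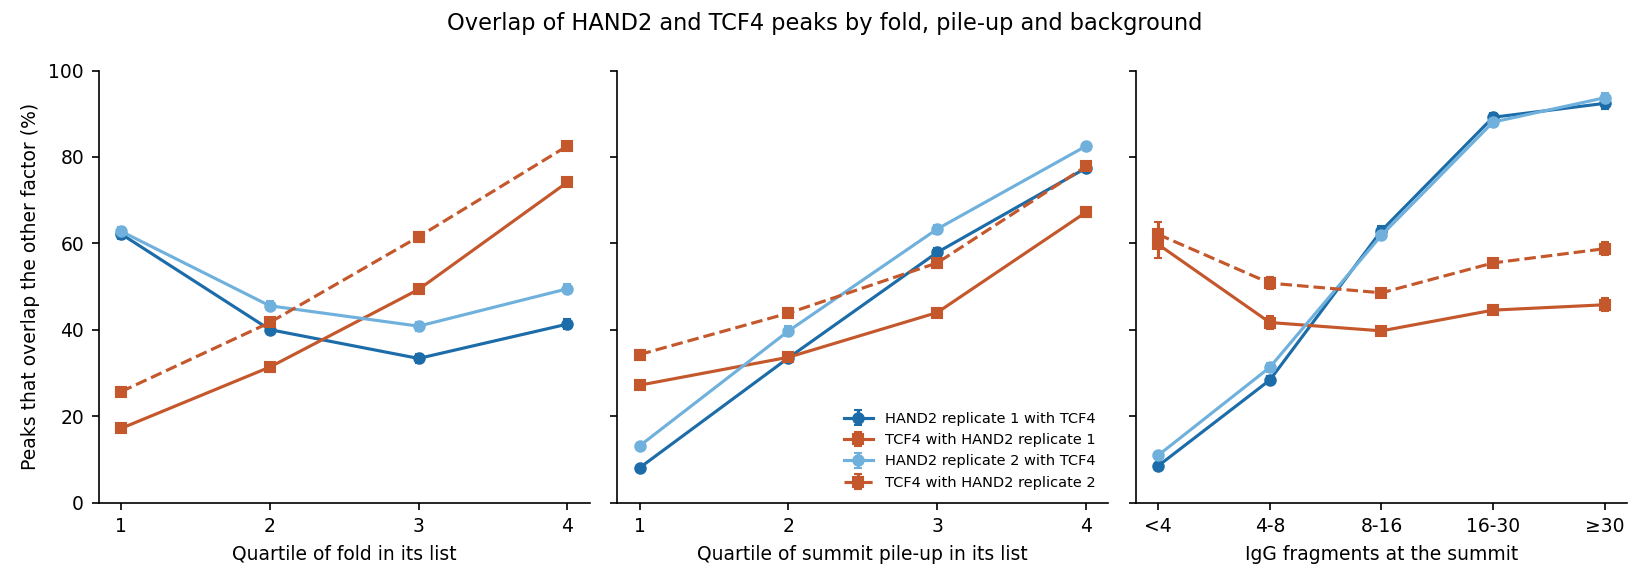
Share of peaks (%, with exact 95% intervals) that overlap the other factor, against the quartile of fold (left), the quartile of summit pile-up (middle) and the IgG fragments at the summit (right). Blue circles are HAND2 peaks with TCF4 and orange squares TCF4 peaks with each HAND2 replicate (dashed for replicate 2); HAND2 shares dip and recover over fold (62.2, 40.1, 33.4 and 41.3% in replicate 1) and climb over pile-up (8.10 to 77.4%).

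The order of the HAND2 shares depended on the measure of strength. The median number of IgG fragments went from 14 in the lowest fold quartile of HAND2 replicate 1 to 4 in the highest, and from 14.6 to 5.6 in replicate 2, while in TCF4 it was 15 and 16. By quartile of pile-up in place of fold, the share of HAND2 peaks with TCF4 went from 8.10 to 33.5, 57.9 and 77.4% in replicate 1. In replicate 2 it went from 13.2 to 39.7, 63.3 and 82.5%. The highest pile-up quartile of TCF4 overlapped HAND2 at 67.2% (replicate 1) and 77.8% (replicate 2), so by pile-up the HAND2 share was the higher of the pair. The highest minus the lowest quartile was thus -17.1 ± 5.35 points by fold (SD, n = 2) and 69.3 by pile-up. With quartiles of fold formed anew within classes of the same background, away from gene ends, the share went up with fold in each of the 4 classes of both replicates. In replicate 1 it went from 2.87 to 18.3% with fewer than 4 IgG fragments, from 18.3 to 40.2% with 4 to 8, from 49.6 to 73.3% with 8 to 16 and from 77.7 to 94.6% with 16 to 30. The same classes of replicate 2 went from 4.66 to 22.0%, 20.5 to 45.3%, 45.5 to 74.8% and 75.8 to 94.2%. The mean difference over the 4 classes was 21.0 ± 2.10 points (SD, n = 2), opposite in sign to the difference by fold alone. These differences cover unlike peaks, since the classes leave out gene-end peaks and those with 30 or more IgG fragments. Away from gene ends, over all backgrounds, the lowest and highest fold quartiles of replicate 1 had TCF4 at 51.8 and 40.8%. Within a class background varies less, so fold ranks peaks more nearly as pile-up does. The rise within classes is therefore no result apart from that by pile-up. At a given fold quartile the class of background still spanned a wide range, from 18.3 to 94.6% in the highest quartile of replicate 1.

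**Figure D2:**
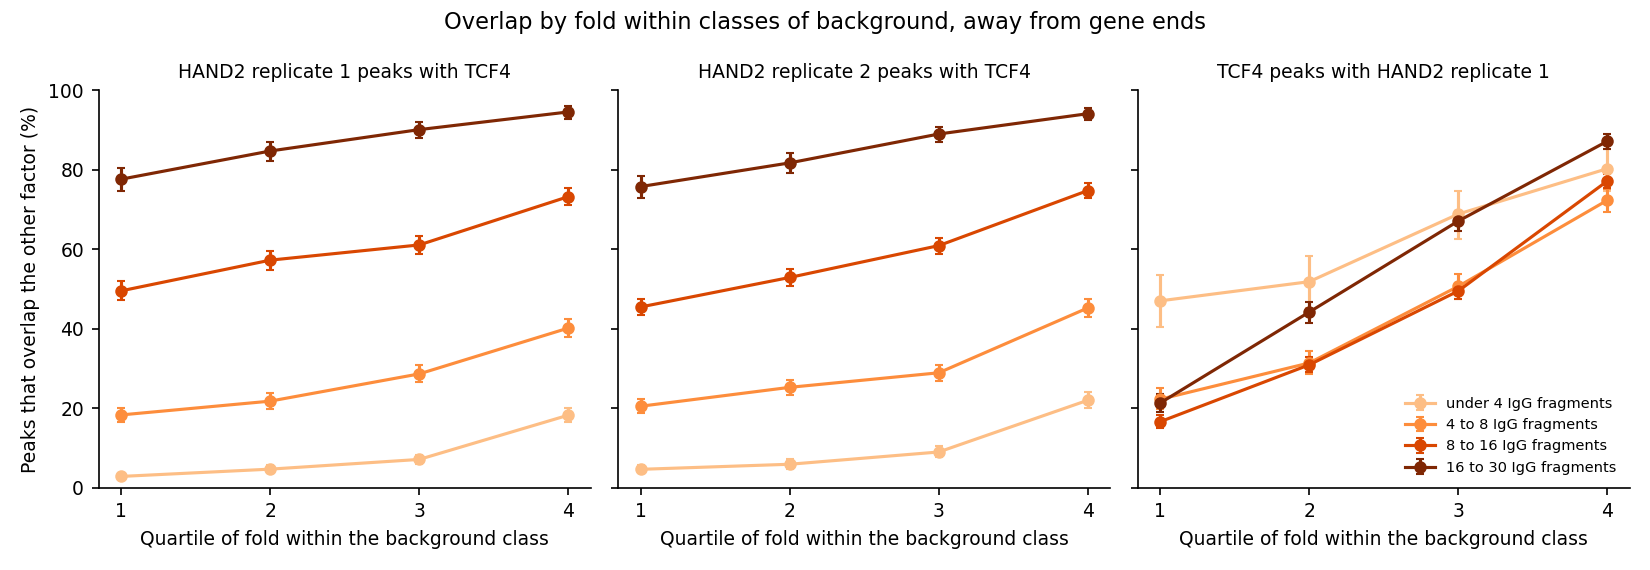
Share of distal peaks (%, with exact 95% intervals) that overlap the other factor, by quartile of fold formed within each class of IgG fragments, for HAND2 replicates 1 and 2 with TCF4 and for TCF4 with HAND2 replicate 1. Every line goes up from left to right; for HAND2 the lines are stacked by background (2.87 to 18.3% at under 4 IgG fragments, 77.7 to 94.6% at 16 to 30 in replicate 1), while for TCF4 peaks they lie closer together.

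HAND2 peaks without TCF4 were weaker in pile-up and lay in lower background than those with it. The median pile-up of replicate 1 peaks was 24 without and 54 with TCF4, and 28 and 61 in replicate 2. The medians of IgG fragments were 4 against 13.3, and 5 against 13.9. Median fold was nevertheless higher without TCF4, at 5.48 against 4.45 in replicate 1 and 4.95 against 4.34 in replicate 2. Their summits lay a median of 42761 bp from a gene end in replicate 1, against 13415 bp for peaks with TCF4. The nearest TCF4 summit to a HAND2 peak without TCF4 was a median of 18247 bp away in replicate 1 and 14093 bp in replicate 2. It was within 2 kb for 7.52 and 9.37%, so few of these peaks were near misses.

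Where both factors were called, their summits stood close together, though not as close as the summits of the HAND2 replicates. The median distance to the TCF4 summit was 90 bp for HAND2 replicate 1 and 77 bp for replicate 2, a mean of 83.5 ± 9.19 bp (SD, n = 2). Between the HAND2 replicates it was 47 bp over 23343 pairs. Summits were within 100 bp of each other at 53.3 and 57.5% of the HAND2 and TCF4 pairs and at 70.6% of the replicate pairs. At the 11786 places called in all 3 lists, the medians were 86 and 70 bp to TCF4 and 48 bp between the HAND2 replicates. At 6064 of these places the HAND2 summits were within 50 bp of each other, with a median of 8 bp. There the TCF4 summit was a median of 57 bp from replicate 1 and 53 bp from replicate 2. Peaks were far wider than these distances, with medians of 939 bp for HAND2 and 1036 bp for TCF4 over the replicate 1 pairs.

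**Figure D3:**
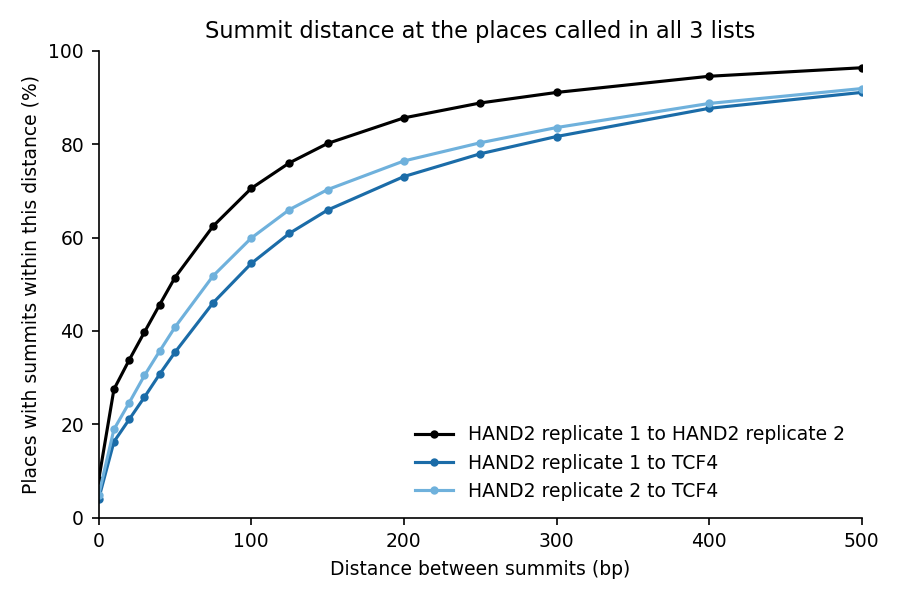
Cumulative share of places (%) whose summits lie within a given distance (bp), at the 11786 places called in all 3 lists. The black line, HAND2 replicate 1 to replicate 2, is above both blue lines, HAND2 to TCF4, at every distance drawn: at 100 bp it stands at 70.5%, against 54.5 and 59.9%.

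Over all positions, summits were closer together at pairs of higher fold. Where the HAND2 and the TCF4 peak were both in their highest fold quartile, the median distance was 70 bp for replicate 1 (1855 pairs) and 53 bp for replicate 2 (2464 pairs). Where both were in the lowest quartile it was 122.5 and 103.5 bp. The HAND2 replicates went the same way, from 70 bp in the lowest to 26 bp in the highest quartile of both. At gene ends the medians were 95 and 80 bp, and away from them 89 and 76 bp. These differ by less than the 2 HAND2 replicates do from each other. At the 77 and 135 gene-end pairs of highest fold in both lists the medians were 113 and 64 bp, so the replicates differed by more there than over all pairs. By HAND2 fold alone, gene-end pairs with TCF4 went from 90.5 bp in the lowest to 131 bp in the highest quartile of replicate 1 (113 pairs). In replicate 2 they went from 80.5 to 82 bp (207 pairs). By this measure the shorter distance to TCF4 at higher fold was not seen at gene ends. Gene-end pairs of the HAND2 replicates went from 64 to 31.5 bp between the lowest and the highest quartile of replicate 1.

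The rank of fold was only loosely shared between HAND2 and TCF4. Over shared pairs, Spearman's rank correlation of fold was 0.28 for replicate 1 (12762 pairs) and 0.35 for replicate 2 (15735 pairs), a mean of 0.316 ± 0.0482 (SD, n = 2). Between the HAND2 replicates it was 0.87. The points of such a correlation share the local background, and the IgG control as far as it is the same, so these values describe the lists. The IgG fragments at the paired summits ranked together at 0.93 and 0.94, and pile-ups, which hold that background, at 0.56 and 0.62. With IgG fragments held constant the rank correlation of fold was 0.36 and 0.41. At gene ends it was 0.25 and 0.29, and away from them 0.29 and 0.38.

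Within a quartile of HAND2 fold, little rank order of fold was shared. The rank correlation was between 0.0587 and 0.0728 in the 4 quartiles of replicate 1 and between 0.0538 and 0.168 in those of replicate 2. In the same quartiles of replicate 1, the correlation with replicate 2 was 0.311 to 0.698. A quartile restricts the range of both comparisons alike on the HAND2 replicate 1 side. Pile-ups of HAND2 and TCF4, which hold the background, ranked together in these quartiles at 0.630 to 0.765 in replicate 1 and 0.678 to 0.768 in replicate 2. By quartile of TCF4 fold, the correlation of fold was 0.276 and 0.302 in the highest and 0.0300 to 0.132 in the others. Of shared pairs in the highest HAND2 quartile, 59.7% in replicate 1 and 60.2% in replicate 2 had a TCF4 peak of its highest quartile. In the lowest HAND2 quartile the shares were 30.7 and 23.5%. The lists of highest fold had few members in common: of the highest 1000 peaks of each list, 105 were paired between replicate 1 and TCF4 and 160 between replicate 2 and TCF4, against 714 between the HAND2 replicates. Of the highest 100, 2 and 7 were paired with TCF4 and 61 between the HAND2 replicates.

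**Figure D4:**
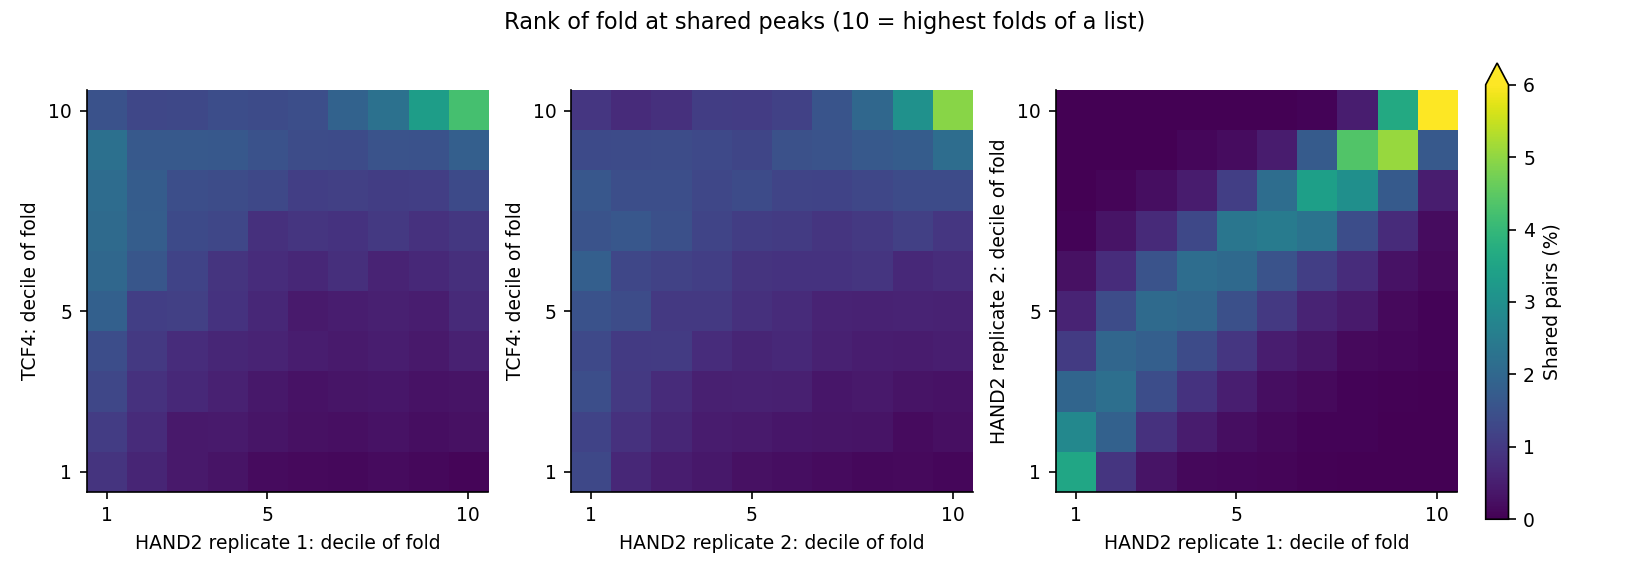
Shared pairs (% of all pairs of a panel, colour scale capped at 6%) by decile of fold in the first list (horizontal) and in the second (vertical), where 10 is the highest. The HAND2 replicates (right) fill the diagonal, with 9.89% in the highest decile of both, while HAND2 against TCF4 (left and middle) gathers in the upper right corner, with 4.24 and 4.94% of pairs in the highest decile of both, and in replicate 1 also at the lowest HAND2 decile with TCF4 deciles 6 to 9 (2.01 to 2.21%).

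MEIS2 replicate 1 served as a yardstick for a factor of another class. At paired peaks its fold ranked with that of HAND2 replicates 1 and 2 with correlations of 0.56 and 0.52, both above the values for TCF4, and its summits lay a median of 65 and 71 bp away. The MEIS2 replicate 1 list is shorter, with 9595 peaks, so the pairs are not the same places. Correlation and distance were not computed for MEIS2 replicate 2, so both rest on replicate 1 alone. MEIS2 replicate 1 overlapped 38.6% of HAND2 replicate 1 peaks with TCF4 and 13.8% of those without (33.2 and 12.6% in HAND2 replicate 2). MEIS2 replicate 2 went the other way, with 9.84% of HAND2 replicate 1 peaks with TCF4 and 20.1% of those without (7.79 and 15.6% in HAND2 replicate 2). No direction for MEIS2 at shared sites therefore holds over its replicates.

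By gene, HAND2 was rarely at a gene end without TCF4. Both HAND2 replicates reached within 1 kb of an end of 3752 of 19974 protein-coding genes (18.8%), and TCF4 reached 10769 (53.9%). Both factors did so at 3507 genes (17.6%), leaving 245 with HAND2 alone. TCF4 without either HAND2 replicate was at 5384 genes. With each HAND2 replicate by itself the shared genes numbered 3786 and 5106. A gene counts when a peak of each list reaches either of its ends, so the peaks need not overlap each other, and the fold given for a gene is the highest of a list's peaks that do.

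Some genes of the HAND2 dimer system itself were among the shared ones. The gene lists here and below were chosen with earlier results of these data known, so their shares are descriptions. Of the 7 E protein and ID genes, 4 had both factors at an end, against 17.6% of all genes. ID1 had folds of 8.15 and 11.7 for HAND2 and 12.5 for TCF4, ID3 had 7.84, 9.75 and 13.7, and ID2 had 5.60, 7.91 and 12.9. TCF4 had the highest fold at each of these 3 ID genes. The E protein gene TCF12 had 4.45 and 2.66 for HAND2 and 4.43 for TCF4. TCF3, another E protein gene, and ID4 carried TCF4 without HAND2, at 8.53 and 3.14. TCF4 had no peak of any of the 3 lists at its own ends. Of 43 tissue-restricted bHLH genes, the class of HAND2, 3 had both (6.98%, below the 17.6% of all genes). They were HAND1, with 10.1 and 10.7 for HAND2 and 12.2 for TCF4, HAND2 itself, with 3.85, 5.01 and 12.8, and ATOH8, with 2.74, 3.81 and 5.996. A further 12 of the 43 had TCF4 at an end and not both HAND2 replicates, among them TWIST1, and 28 had neither. Of all genes, 27.0% had TCF4 with neither HAND2 replicate, 9.40% had TCF4 with 1 of them and 43.4% had none of the 3 lists at an end.

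Other bHLH families were read against the 17.6% of all genes with both factors. For TCF4 without both HAND2 replicates, the shares of all genes were 27.0% with neither replicate and 9.40% with 1 of them. Of the 13 HES, HEY and related repressor genes, 3 had both (23.1%, near that share) and 6 had TCF4 without both HAND2 replicates. HES1, a Notch target, had folds of 13.9 and 11.6 for HAND2 and 38.8 for TCF4, and BHLHE40, a clock-linked repressor, had 10.2, 13.0 and 11.4. HEY1, also a Notch target, had 3.96, 2.49 and 8.995. Of the 22 leucine-zipper bHLH genes (MYC, MAX, USF and relatives), 9 had both (40.9%) and another 9 had TCF4 without both HAND2 replicates. TFAP4 had 6.66 and 8.05 for HAND2 and 35.2 for TCF4, MNT, a MAX partner, 5.32, 6.39 and 12.8, and SREBF2 and SREBF1, regulators of sterol and lipid synthesis, had lowest folds of 4.23 and 4.17. MYCN, the amplified oncogene of this line, had 1.94 and 1.89 for HAND2 and 4.13 for TCF4.

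Regulators of the adrenergic state of neuroblastoma were shared at most of the genes listed. The list was chosen with earlier results of these data known, so its share is no independent result beside that of all genes. Of 28, 19 had both factors at an end (67.9%, against 17.6% of all genes), 1 (SOX4) had HAND2 without TCF4 and 2 had TCF4 without both HAND2 replicates. The count was 14 without peaks of 30 or more IgG fragments and 15 with the 5′ end alone, and 3 with the 10000 peaks of highest fold in each list. Under these settings the shared number over all genes, as a mean over the HAND2 replicates, went from 4446 to 2941.5, 3211 and 357.5. The median over these 19 of the lowest fold among the 3 lists was 4.65. TLX2, a homeobox gene, had 13.9 and 10.8 for HAND2 and 50.5 for TCF4. PHOX2A, a homeobox regulator of noradrenergic identity, had 9.44, 13.5 and 16.7. At ISL1, a LIM homeobox gene, the folds were closer to equal at 6.98, 6.29 and 6.24. TBX2, a T-box gene, had 6.31, 7.76 and 18.9. All 6 markers of sympathetic neuroblasts given here (PHOX2A, HAND2, GATA3, ISL1, DBH and TH) had both factors at an end. Occupancy is not expression, and the cell type was not checked further.

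Genes for making, storing and taking up catecholamines were shared at 8 of 18 (44.4%, against 17.6% of all genes) and at 4 with the 5′ end alone. With the 5′ end alone the mean shared number over all genes was 3211, against 4446 with both ends. This list, too, was chosen with earlier results of these data known. SLC6A2, the noradrenaline transporter, had 77.1 and 27.2 for HAND2 and 35.4 for TCF4 among peaks that reached an end. The replicate 1 value belongs to a broad peak whose summit lies 3491 bp outside the gene, which is the SLC6A2 region given among those away from gene ends, so it is not a gene-end summit and the replicates are not read at the same place. CYB561, an electron carrier of secretory granules, had 16.6, 13.9 and 40.8. DBH, which converts dopamine to noradrenaline, had 13.3, 14.5 and 34.0, and TH, the rate-limiting enzyme of the pathway, had 4.71, 5.78 and 11.2. DDC, which makes dopamine from L-DOPA, had HAND2 at 5.06 and 5.48 and no TCF4 peak. Of 30 mesenchymal-state genes, 7 had both (23.3%, near the 17.6% of all genes), led by JUNB with 13.9, 14.6 and 20.4 and SNAI2 with 8.66, 9.49 and 29.0, followed by VIM with 6.38, 7.92 and 9.15 and FOSL1 with 5.24, 6.21 and 7.27.

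The remaining lists give the range. Of 79 cytosolic ribosomal protein genes 19 had both (24.1%, near the 17.6% of all genes), led by RPSA, RPL12, RPL38 and RPS27A, with lowest folds of 5.06, 4.73, 4.68 and 4.26. Of 20 liver genes 1 had both, TAT, and of 20 blood cell genes 1, CSF1R. Of 390 olfactory receptor genes 1 had both (0.256%). With the 10000 peaks of highest fold in each list, 0 ribosomal genes had both. Under that setting only 300 and 415 of all 19974 genes had TCF4 with HAND2 replicate 1 and 2, so 0 is near the share of all genes. These are counts without a test.

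Away from gene ends, the shared regions of highest rank were strong in all 3 libraries. Among the 23304 regions found in both HAND2 replicates, 12486 (53.6%) overlapped TCF4, 9933 of them away from gene ends. Inside CLPB, which encodes a mitochondrial disaggregase, a region at chr11:72355717-72359476 had folds of 99.4 (93.0 to 106) and 84.2 (78.7 to 90.0) for HAND2 and 79.4 (73.7 to 85.5) for TCF4. The TCF4 summit lay 30 and 0 bp from those of HAND2. A region 3491 bp from SLC6A2 (chr16:55650040-55665695) had 77.1 and 95.5 for HAND2 and 71.0 for TCF4, with TCF4 2 bp from both HAND2 summits. Inside DGLUCY, a D-glutamate cyclase gene (chr14:91169433-91173728), the folds were 84.1, 91.0 and 51.1, and all summits fell on the same base. Regions near RASD2, a small GTPase gene, inside HMCN2, a hemicentin gene, and with TMPRSS5, a serine protease gene, as the nearest gene had folds of 46.9 to 72.4 over the 3 libraries.

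The 6 shared regions at gene ends, picked in the same way, were lower in HAND2 fold. Beside IGFBP4, whose product binds insulin-like growth factors, a region (chr17:40456377-40462814) had 22.7 (20.8 to 24.7) and 23.2 (21.5 to 25.04) for HAND2 and 57.5 (54.6 to 60.6) for TCF4, summits 39 and 4 bp apart. A region beside LOC124903571 ranked first, at 29.0, 34.5 and 33.3, but its TCF4 summit lay 1279 and 1284 bp from those of HAND2. RD3, ENDOG with SPOUT1, ACOT11 and PLEKHG5 completed the 6, with HAND2 folds of 14.98 to 26.9 and TCF4 folds of 23.9 to 29.1. Their summits were 43 to 141 bp apart. In all of these but LOC124903571 and ENDOG the TCF4 fold was above both HAND2 folds.

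HAND2 regions without TCF4 included the highest folds of both HAND2 lists. The region that ranked 1 and 3 in replicates 1 and 2 lay 84018 bp from TLN2, a talin gene (chr15:62927675-62929300), with folds of 165 (150 to 181) and 135 (122 to 149). A region inside ULK4, a kinase-like gene (chr3:41362519-41364399), had 145 (133 to 157) and 142 (131 to 154), ranks 4 and 1. Regions near SEC61B and EPSTI1 and inside SLC39A11, a zinc transporter gene, had 91.7 to 108. All 5 were at least 20451 bp from a gene end. Their local background in replicate 1 was at a level of 2.1 to 3.8 IgG fragments, with the same 2.1 at the TLN2 and EPSTI1 regions. This is a background level and not a count of fragments at the summit, and the folds are ratios to it. Their pile-ups in replicate 1 were 284 to 582, against 483 to 1414 in the 6 distal shared regions.

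Among the TCF4 peaks of highest fold without HAND2, several lay at gene ends. At JMJD7 with JMJD7-PLA2G4B (chr15:41826828-41828778) TCF4 had 63.2 (59.1 to 67.4), and at PRR5, an mTORC2 subunit gene, near AGRN, the agrin gene, and at CIMAP1D it had 45.0 to 54.7. Of these 4, 3 had the summit within 128 bp of a gene end.

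At some shared regions the factors ranked at opposite ends of their lists. HAND2 ranked far above TCF4 inside PRKCE, a protein kinase C gene (chr2:45812281-45815415), with 38.8 (35.0 to 43.0) and 38.1 (34.5 to 41.8) for HAND2 and 2.81 (1.87 to 4.06) for TCF4, summits 28 and 34 bp apart. Inside MYLK3, 16167 bp from its end (chr16:46746440-46749660), the folds were 19.1, 19.4 and 2.52. This contrasts with the MYLK3 promoter printed above, where TCF4 reached 9.35. MYT1L, a neuronal zinc-finger gene, had 21.0, 11.8 and 2.32, and DLGAP4, a synaptic scaffold gene, had 15.8, 15.04 and 2.00 with the TCF4 summit 2840 bp away.

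TCF4 ranked far above HAND2 beside RRM2B, which encodes a ribonucleotide reductase subunit induced by p53 (chromosome 8, 102238723 to 102239721). The folds there were 1.79 (1.51 to 2.12) and 2.24 (1.93 to 2.57) for HAND2 and 37.3 (36.0 to 38.6) for TCF4, with 97 and 109 IgG fragments at the summits. HNRNPUL2, an hnRNP gene, had 1.90, 1.73 and 19.7, with the summits 1 and 2 bp apart. At SOD2 and WTAP, which lie side by side, they were 2.12, 1.98 and 18.8, and at PTP4A3, a phosphatase gene, 2.36, 2.18 and 24.0 with summits 2022 bp apart. In 3 of these 4 regions the summit was within 1 kb of a gene end, and in none of the 4 where HAND2 ranked higher.

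**Figure D5:**
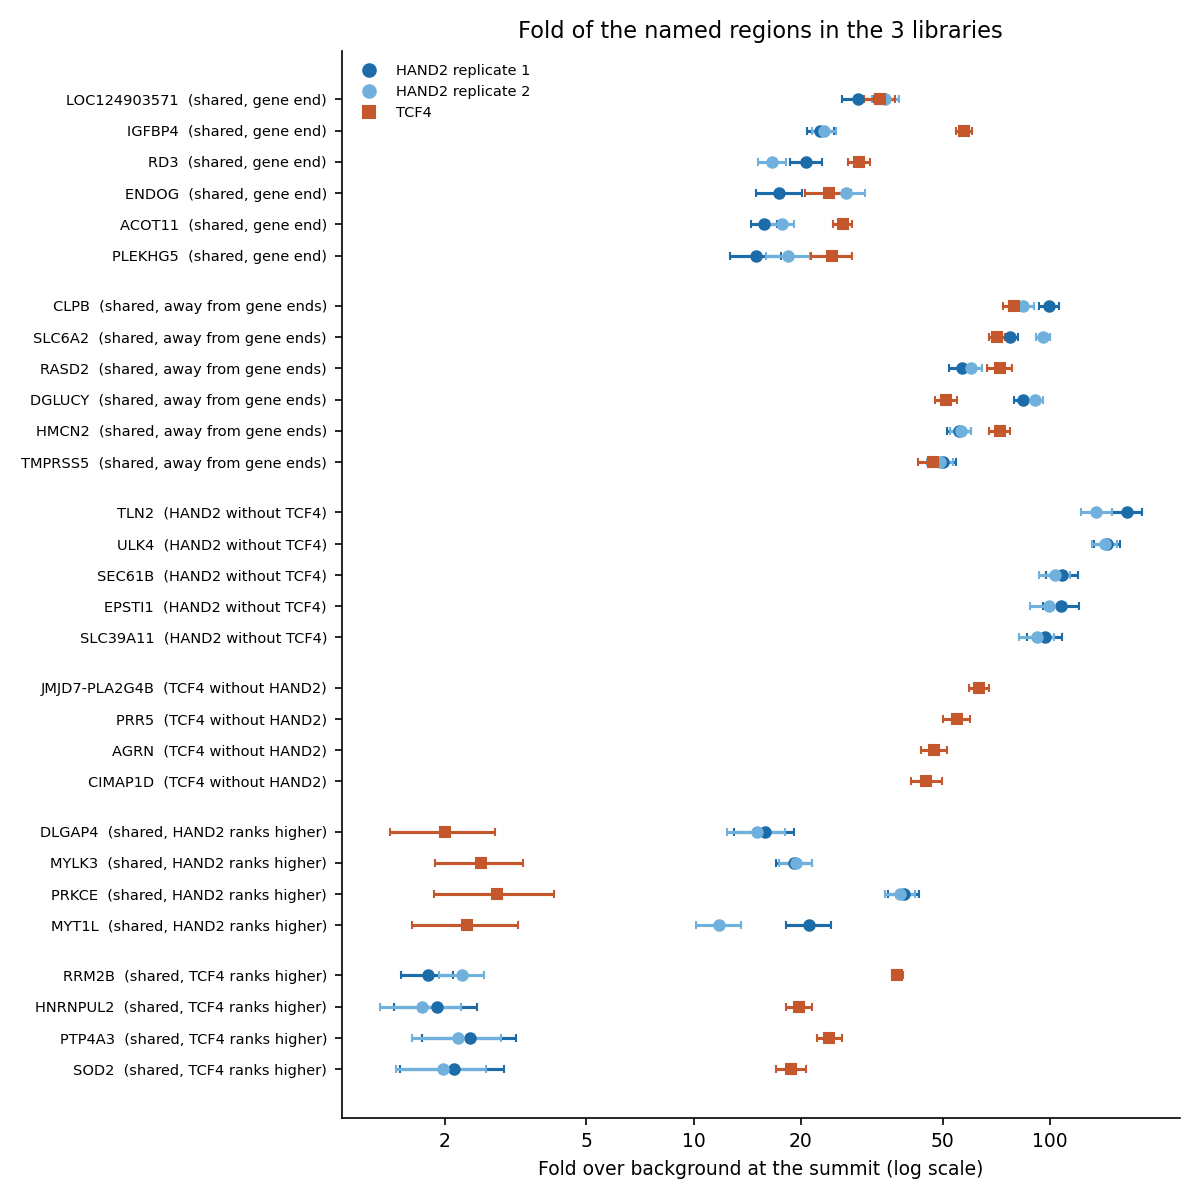
Fold over local background at the summit (log scale) with 95% counting intervals for the named regions, in HAND2 replicates 1 and 2 (dark and light blue circles) and TCF4 (orange squares); a missing symbol means no called peak. The distal shared regions, picked for high rank in all 3 lists, lie from 46.9 to 99.4, and the lowest 8 rows show regions picked because the factors rank apart, such as PRKCE at 38.8, 38.1 and 2.81.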

How the data were processed

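CUT&Tag peak lists of 3 libraries were compared, and 2 MEIS2 lists served as a reference. Per the submitters' processing notes, reads were handled with bcl2fastq 2.17, Bowtie2 and MACS3 3.0.0a6 on hg38. Options and duplicate removal are not stated there. The deposited files hold separate calls for every sample. The deposited fold is a ratio of summit pile-up to local background, and was used to rank peaks within a list. The deposited −log10 p and −log10 q were used to recover pile-ups and as a filter; the lowest −log10 q was 2.00. The deposited summit offset gave positions; coordinates are 1-based, and 7 TCF4 peaks on other sequences were left out.

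The whole-number pile-up of a peak was recovered as the value giving the deposited fold and p within a relative tolerance of 5e-05 (100% of the 3 lists). The local background in units of 1 IgG fragment is called IgG fragments; it is a background level. Depth relative to IgG was 0.789 and 0.932 for HAND2 and 0.784 for TCF4, and median pile-up 34, 41 and 60. TCF4 was treated as called against the same IgG library, which its labels do not name. Intervals are exact binomial (Clopper-Pearson) for shares and exact Poisson of the pile-up for folds; whether fragments are independent molecules is not known.

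Peaks overlapped with 1 bp or more in common; distances and rank correlations used mutual nearest pairs. HAND2 regions are merged spans of both replicates, with each list's highest fold; the TCF4 value is its highest overlapping peak, whose summit can lie apart. Gene ends came from RefSeq (GRCh38.p14), without strand, exons or UTRs, so those are not stated. Members and gene lists were chosen with earlier results of these data known. Named regions follow ranks: 6 shared at and 6 away from gene ends, 5 of each factor without the other, 4 with the widest rank difference each way, and up to 4 genes per list, with every E protein, ID and HAND gene. Other genes were named after their values were seen, and a few items are not reported here. The scripts (Python 3.11.15, numpy 2.4.6, pandas 2.3.3, scipy 1.17.1) were tested on simulated data.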

Additional observations from a re-analysis of the deposited data

How the results depend on the processing

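Means over the HAND2 replicates are given. Leaving out each HAND2 replicate gave 44.3 to 49.7% for HAND2 peaks with TCF4, 43.0 to 52.9% for TCF4 peaks with HAND2, 77 to 90 bp for the summit distance, 0.282 to 0.350 for the rank correlation of fold, 43.8 to 46.6 points for the gene-end excess, -20.9 to -13.3 points for the highest minus lowest fold quartile and 3786 to 5106 genes (mean 4446). With summits no more than 200 bp apart the first 3 became 32.5%, 33.9% and 50 bp, the gene-end excess 29.7 and the quartile difference -6.92; the distance is bounded by that rule. With the 10000 peaks of highest fold they became 29.9%, 30.8% and 65 bp, the correlation 0.156, the excess 23.5, the quartile difference 14.9, which is opposite in sign, and the genes 357.5; fewer peaks enter. Leaving out peaks with 30 or more IgG fragments, the share of HAND2 was 41.6%, the excess 35.2, the quartile difference -7.56 and the genes 2941.5. A −log10 q of 5 or more gave a quartile difference of -24.1. Pile-up in place of fold gave a correlation of 0.593 and a quartile difference of 69.3. Every overlapping pair gave 98 bp. Overlap of 50% of the shorter peak gave an excess of 43.0, a window of 2 kb 41.0 and the 5′ end alone 48.7. Further settings were chosen after seeing the data. Classes of IgG fragments gave an excess of 18.8 and, for distal peaks with fewer than 30, a quartile difference of 21.0. The correlation with IgG fragments held constant was 0.390. HAND2 peaks found in both replicates gave a share of 53.2% and an excess of 40.8. The causes were not tested. All other values stayed within 1 SD of the replicates, or within 1.5 times for genes. Counts of 5 gene lists were recomputed 35 times and 27 stayed within 1.5 times. The 10000 peaks of highest fold gave 3 adrenergic, 3 catecholamine, 2 E protein and ID, 2 mesenchymal and 0 ribosomal genes with both factors, against 19, 8, 4, 7 and 19. Over all genes the mean was 357.5 against 4446. The 5′ end alone gave 4 catecholamine and 4 mesenchymal genes, and leaving out the peaks of high background gave 4 mesenchymal genes. No paired analysis was possible because TCF4 has 1 library and the results come from no test. Depth limits the absence of a peak: a site without a call is not shown to be free of the factor.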

Other observations

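The share of HAND2 peaks with TCF4 differed between chromosomes. In replicate 1 it was lowest on chromosome 13 (31.2%) and highest on chromosome 19 (78.6%), with a median of 43.2% over chromosomes. In replicate 2 it was lowest on chromosome 3 (38.7%) and highest on chromosome 19 (77.4%). TCF4 peaks overlapped each HAND2 replicate least on chromosome 21, at 22.0% for replicate 1 and 31.0% for replicate 2.

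Promoter windows with a summit of both HAND2 replicates and none of TCF4 numbered 166. CAGATG was in 10.2% of them (6.08 to 15.9%) and CAGCTG in 14.5% (9.49 to 20.7%), with a median GC content of 61.0%. The intervals include the 11.7 and 17.7% of all promoters.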
